A study of Homo sapiens with 3 samples.

Results

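Band 17q21 on the long arm of human chromosome 17 holds a dense row of genes that runs, in the order used here, from BECN1 past BRCA1 to MAPT, and 54 named genes of that row are described below on 3 expression arrays. A gene was represented by its brightest probe set with exactly 1 gene symbol (highest mean log2 signal over the arrays), and it was kept when that mean lay above the median signal of all probe sets, 50.5. Of the 54 genes, 52 had such a probe set and 39 were kept, against 12225 kept of 19775 genes in all. The kept genes were thus chosen by their mean signal, and the list itself was proposed with ratios of these arrays known, so the levels and ratios below are a description. Just inside that limit lay C1QL1, MPP3 and AOC2, with geometric mean signals of 54.0, 66.7 and 74.4, and just outside it ITGA2B, TMEM106A and CRHR1, with 48.6, 44.3 and 42.5. The order followed here is the listed one. The RefSeq gene table places all 53 of the members it holds on chromosome 17 in the same order, apart from MPP2 and CD300LG, which change places there.

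Genes of a chromosome band share a position and need not share a function. BRCA1, the best known gene of this row, encodes a ubiquitin ligase that works in repair of DNA double-strand breaks by homologous recombination, and its loss predisposes to breast and ovarian cancer. MAPT, at the other end, encodes the microtubule-binding protein tau, and GRN encodes progranulin, a secreted and lysosomal protein; mutations in either cause frontotemporal dementia. Between them lie genes for autophagy, splicing, transcription elongation, myristoylation, cell adhesion and the red cell membrane, so the row mixes genes active in almost every cell with genes confined to neurons, glia, platelets or erythroid cells.

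The cells were a colorectal cancer line, named SW620 in the sample labels and SW480 in the series' design text, and which of the names is right was not tested. All 3 arrays come from virus-infected cells: a virus for full-length LATS2, a kinase of the Hippo growth-control pathway (the LATS2 array), a virus for residues 1 to 625 of LATS2, which lack the kinase domain (the LATS2N array), and an empty-vector virus (the control array). There is 1 array per group, so no difference below has a replicate, a test or a p-value, and the number of arrays limits the precision. A difference was called by size alone, at 2-fold or more between signals that were first raised to a floor of 50.5 where they were lower. A ratio with 1 signal under the floor gives a lower limit of the difference and is marked as a bound or with "at least". The error given beside a log2 ratio is the spread between probe sets of the same gene at that signal (a robust SD). For LATS2 over control it ran from 0.42 at signals of 50 to 100 down to 0.11 above 2000, and it covers noise within arrays, not differences between cultures. Signals are on the linear scale of the arrays, and they are not compared between genes.

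The median signal was 49.4 on the LATS2, 51.0 on the LATS2N and 51.1 on the control array. LATS2 itself had 4 probe sets, of which 1 read 219 on the LATS2, 219 on the LATS2N and 206 on the control array, another read 377, 409 and 385 in the same order, while the other 2 stayed under the floor throughout; their place in the transcript, inside or outside the expressed stretch, is not known here. All 8 epithelial and colon markers looked for, among them EPCAM and VIL1, were above the floor on every array. Of 16 measured markers of other cell types, 11 were below the floor on every array, including the leukocyte marker PTPRC and the endothelial marker CDH5. Above it on every array were 4: COL1A1 (fibroblast), PECAM1 (endothelial, as CDH5 is), HBB (erythroid) and SNAP25 (neural). COL1A1 read 596 on the LATS2, 607 on the LATS2N and 325 on the control array, and PECAM1 read 85.0, 91.6 and 142. HBB read 98.3, 251 and 158, and SNAP25 read 115, 111 and 107. The summed signal of those 16 was 1045 on the LATS2, 1292 on the LATS2N and 984 on the control array, and its part in the results below was not tested.

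Most of the 39 genes had a higher signal with LATS2 than in the control, by less than the call. The log2 ratio of LATS2 over control was above 0 for 28 of them (71.8%), against 55.5% of all genes kept, and below 0 for 10, against 44.2%, and the median was 0.32, against 0.04 over all genes kept. The LATS2 array gave the highest of the 3 signals for 27 of the 39 genes, against 39.4% of all genes, LATS2N for 4, against 32%, and control for 8, against 28.6%. At 2-fold, 1 gene was called higher and 2 were called lower, against 1.01% and 0.826% of all genes. At 1.5-fold, 8 were higher, against 5.9% of all genes, and 3 lower, against 4.2%. More than 2 spreads above 0 lay 12 of the 39 genes, against 10.1% of all genes, and more than 2 spreads below 0 lay 3, against 6.69%. The median depended on the choice of probe set: it was 0.13 over the median of each gene's usable probe sets (those with a mean signal above 50.5), where all genes had 0.02, and 0.08 for genes reaching a signal of 500 on either array, where all genes had 0.03.

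**Figure D1:**
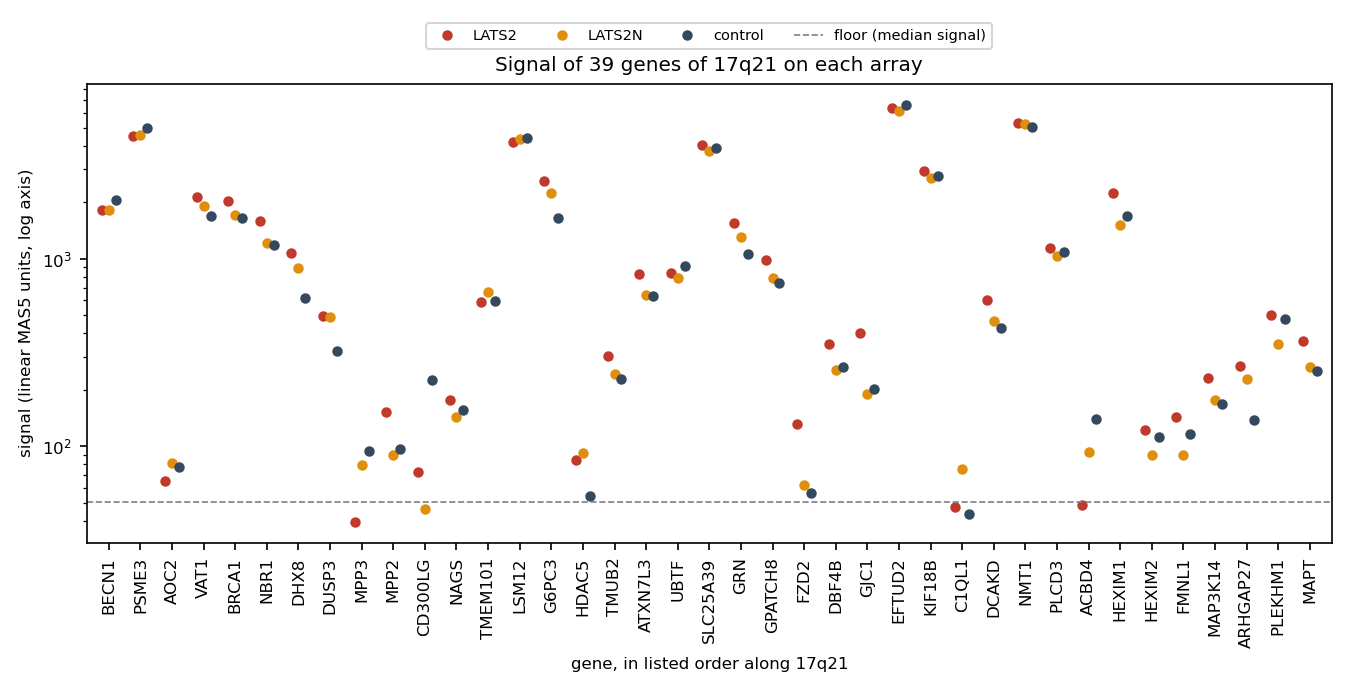
Signal of each of the 39 genes (x axis, listed order) on the LATS2, LATS2N and control arrays (y axis, linear signal units on a log axis); each point is 1 array and the dashed line is the floor of 50.5. The LATS2 point is the highest of the 3 for 27 genes, while CD300LG and ACBD4 are highest on the control array.

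**Figure D2:**
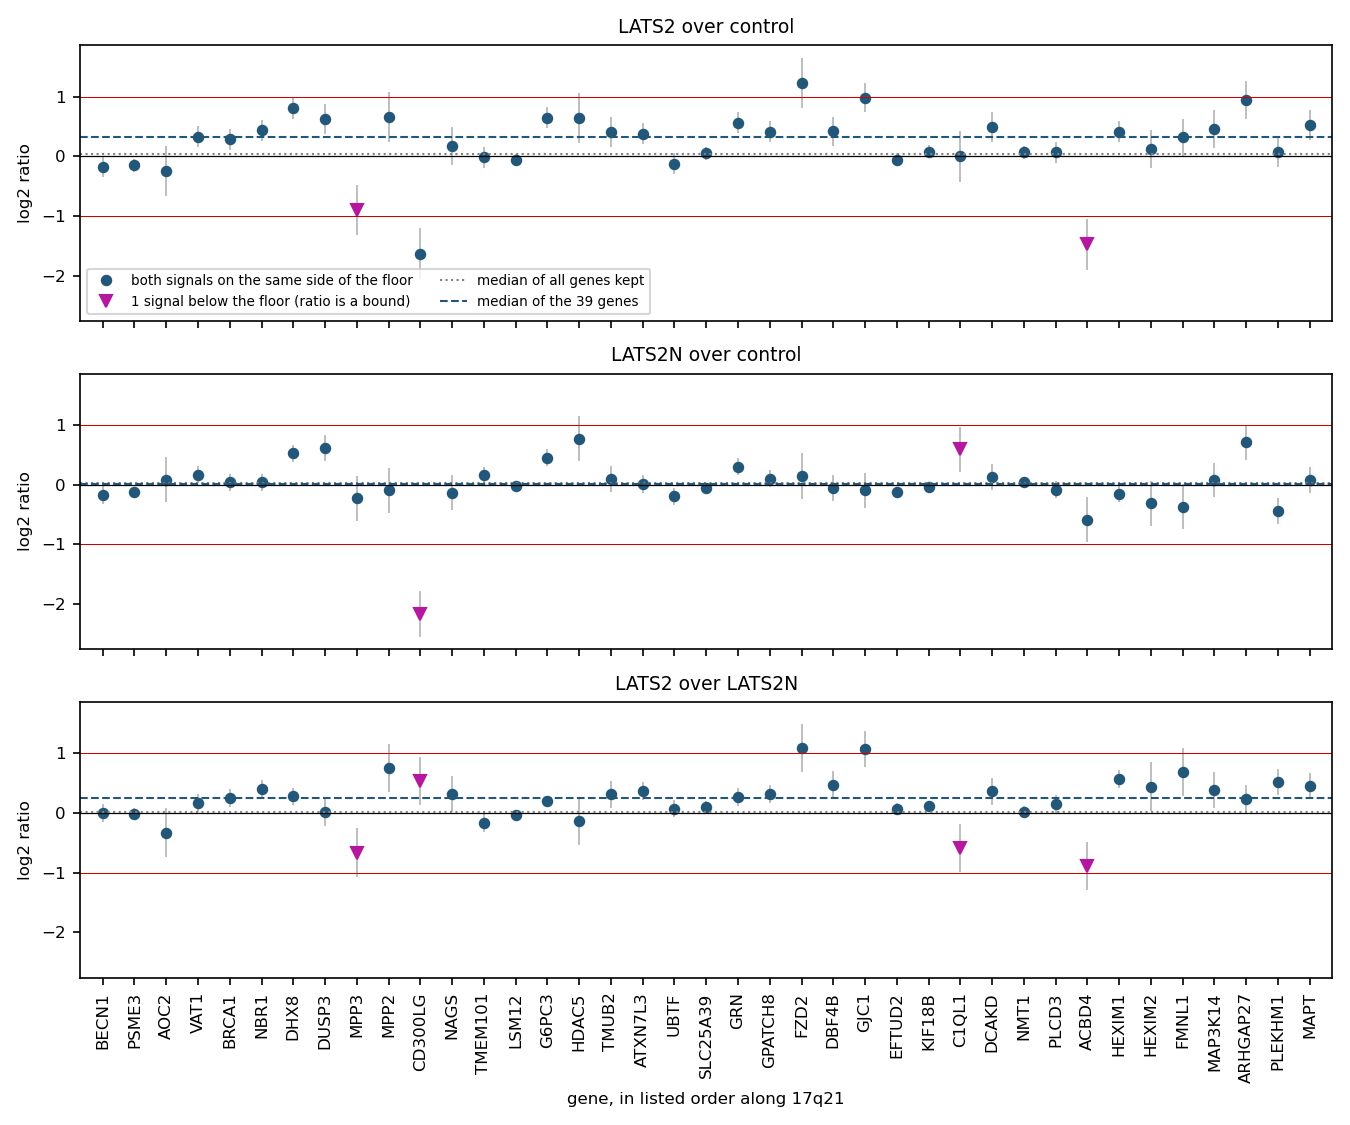
Log2 ratio of each of the 39 genes in listed order for LATS2 over control (top), LATS2N over control (centre) and LATS2 over LATS2N (bottom); bars show the spread between probe sets of a gene at that signal, red lines mark 2-fold and triangles are bounds. The dashed median of the 39 genes is at 0.32, 0.01 and 0.25 in the panels from top to bottom, against dotted medians of all genes of 0.04, 0.02 and 0.02.

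Promoter sequences are shown for genes that stood apart and had an entry in the RefSeq promoter table (GRCh38.p14, 250 bases before to 50 after a start): ACBD4, called lower on LATS2, and DHX8, G6PC3 and GRN, the 3 highest LATS2 over control ratios among genes with signals of at least 500 on both arrays. CD300LG, FZD2 and GJC1 are named only. Capitals mark matches on either strand to GGAATG (the TEAD motif, the factors that YAP binds), ACGTG (the core bound by hypoxia-inducible factor), CACGTG (the E-box), CCAAT (the box bound by NF-Y), TATAAA (the TATA box) and GGGCGG (the SP1 motif). The core bound by hypoxia-inducible factor lies inside the E-box on both strands, so each E-box also counts as 2 matches to it.
DHX8, chr17:43483725-43484024, plus strand: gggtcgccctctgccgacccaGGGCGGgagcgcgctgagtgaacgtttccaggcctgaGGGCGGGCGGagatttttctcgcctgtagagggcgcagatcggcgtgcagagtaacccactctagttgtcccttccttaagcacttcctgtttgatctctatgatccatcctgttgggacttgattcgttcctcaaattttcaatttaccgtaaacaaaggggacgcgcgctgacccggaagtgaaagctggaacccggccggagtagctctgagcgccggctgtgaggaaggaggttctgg
G6PC3, chr17:44070423-44070722, plus strand: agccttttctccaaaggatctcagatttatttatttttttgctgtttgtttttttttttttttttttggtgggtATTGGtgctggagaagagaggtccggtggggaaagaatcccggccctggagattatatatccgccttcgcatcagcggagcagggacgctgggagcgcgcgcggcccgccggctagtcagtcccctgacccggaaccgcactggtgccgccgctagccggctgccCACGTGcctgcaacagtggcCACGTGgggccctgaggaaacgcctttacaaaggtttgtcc
GRN, chr17:44345052-44345351, plus strand: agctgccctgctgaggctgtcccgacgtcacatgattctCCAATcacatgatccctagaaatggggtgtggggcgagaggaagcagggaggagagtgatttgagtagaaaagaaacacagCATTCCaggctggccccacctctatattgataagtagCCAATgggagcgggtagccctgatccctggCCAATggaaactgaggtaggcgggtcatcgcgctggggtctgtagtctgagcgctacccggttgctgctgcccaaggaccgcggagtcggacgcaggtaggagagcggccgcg
ACBD4, chr17:45132369-45132668, plus strand: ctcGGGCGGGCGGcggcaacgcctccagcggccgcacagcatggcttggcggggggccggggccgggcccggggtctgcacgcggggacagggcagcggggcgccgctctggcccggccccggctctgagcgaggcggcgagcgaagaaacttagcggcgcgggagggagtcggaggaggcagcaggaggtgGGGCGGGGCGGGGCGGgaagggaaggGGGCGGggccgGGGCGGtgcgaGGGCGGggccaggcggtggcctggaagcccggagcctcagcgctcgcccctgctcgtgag
G6PC3 has 3 entries in the table and ACBD4 has 2, and the first of each is printed. The G6PC3 sequence holds 2 E-boxes and 1 CCAAT box, the GRN sequence 3 CCAAT boxes and 1 TEAD match, and the DHX8 and ACBD4 sequences 3 and 8 SP1 matches. A gene counted when any of its entries held a motif, so ACBD4 counts for CCAAT and G6PC3 for GGGCGG, which their printed sequences lack. The 30 kept genes with an entry had 48 entries, and the 9991 kept genes of the whole array with an entry had 14545. Of the 30, 6 (20%) held GGAATG, against 14.8% of the 9991. ACGTG was held by 23.3% against 32.3%, CACGTG by 10% against 12.7%, CCAAT by 60% against 42.9%, TATAAA by 10% against 8.67%, and GGGCGG by 80% against 76.6%. These are matches of letters in a fixed window and a description only.

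The genes of repair, chromatin and transcription were mostly among those above 0. BRCA1 read 2018 on the LATS2, 1702 on the LATS2N and 1654 on the control array. By this probe set BRCA1 was highest on LATS2, with a log2 ratio over control of 0.29 (spread 0.18), which is under 2 spreads. For LATS2N over control BRCA1 was at 0.04. Its second usable probe set read 278, 237 and 294 in the same order, so the 2 probe sets pointed in different directions for LATS2 over control. HEXIM1, an inhibitor of the elongation kinase P-TEFb, read 2241 on the LATS2, 1516.5 on the LATS2N and 1682 on the control array, and both of its usable probe sets were highest on the LATS2 array. HEXIM2, its neighbour and paralog with the same role, read 123 on the LATS2, 90.4 on the LATS2N and 112 on the control array, a log2 ratio of LATS2 over control of 0.13, well inside its spread of 0.32. ATXN7L3, a subunit of the deubiquitinase module of the SAGA coactivator, read 825 on the LATS2, 639 on the LATS2N and 635 on the control array. HDAC5, a class IIa histone deacetylase, was near the floor, at 84.4 on the LATS2, 92.5 on the LATS2N and 54.2 on the control array, and a second probe set went the other way for LATS2 over control. UBTF, the architectural factor of RNA polymerase I, was the exception of the group: it read 834 on the LATS2, 792 on the LATS2N and 909 on the control array, and all 4 of its usable probe sets were lower than control on both construct arrays. In all, 5 of the 6 kept genes of this group were above 0 for LATS2 over control, with a median of 0.33 and none called; MEOX1, a homeobox factor of the somite, was not kept.

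Splicing and cell division genes went in both directions. DHX8, an RNA helicase that releases spliced mRNA from the spliceosome, read 1074 on the LATS2, 887 on the LATS2N and 616 on the control array. Both construct arrays were above control, with log2 ratios of 0.80 (spread 0.18) for LATS2 and 0.53 (spread 0.14) for LATS2N, though its second probe set gave only 0.18 and 0.04. GPATCH8, a G-patch protein, read 986 on the LATS2, 791 on the LATS2N and 739.5 on the control array, but its second usable probe set read 86.0, 165 and 170 and was 1.97-fold lower on LATS2 than on control. DBF4B, a regulatory subunit of the replication kinase CDC7, read 351 on the LATS2, 253 on the LATS2N and 263 on the control array, and both of its usable probe sets were higher on LATS2. The other 3 genes of the group differed little between arrays by their brightest probe sets. EFTUD2, a GTPase of the spliceosome, read 6384 on the LATS2, 6106 on the LATS2N and 6621 on the control array, the Sm-like protein gene LSM12 read 4206, 4329.7 and 4386, and KIF18B, a mitotic kinesin, read 2919.5, 2707 and 2768. The second usable probe set of LSM12 read 769, 938 and 1107 and was lower on LATS2 than on control, at a log2 ratio of -0.53. Of these 6 genes 4 were above 0 for LATS2 over control, with a median of 0.25 and none called.

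Among the autophagy, lysosome and protein turnover genes, the autophagy receptor gene NBR1 and GRN were higher on the LATS2 array. NBR1, whose product carries ubiquitinated cargo to autophagosomes, read 1591 on the LATS2, 1208 on the LATS2N and 1177 on the control array; the log2 ratio of LATS2 over control was 0.43 (spread 0.18) and its second usable probe set gave 0.53. LATS2N and control were alike here, with a log2 ratio of 0.04. GRN read 1554 on the LATS2, 1297 on the LATS2N and 1054 on the control array, a log2 ratio of 0.56 (spread 0.18) for LATS2 and 0.30 (spread 0.14) for LATS2N over control. All 3 GRN probe sets had the control array lowest and the LATS2 array highest. BECN1, a core subunit of the autophagy lipid kinase complex, went the other way by a small step, at 1826 on the LATS2, 1828 on the LATS2N and 2063 on the control array. PSME3, an activator of the nuclear proteasome, read 4520.2 on the LATS2, 4580.3 on the LATS2N and 5003 on the control array. By their brightest probe sets both were lower on the 2 construct arrays than on control, and neither ratio reached 1.5-fold. For LATS2 over control BECN1 was at -0.18, no more than its spread of 0.18. Of the 4 usable probe sets of PSME3, 3 were below 0 there, and the other read 838 on LATS2 and 837 on control. PLEKHM1, an adaptor of late endosomes and lysosomes, was lowest on LATS2N, at 500.3 on the LATS2, 349.7 on the LATS2N and 474 on the control array. TMUB2, a ubiquitin-like membrane protein gene, read 302 on the LATS2, 244 on the LATS2N and 228 on the control array, which puts 4 of the 6 kept genes of this group above 0 for LATS2 over control, with a median of 0.24.

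Of the metabolic and mitochondrial genes, G6PC3 was higher and ACBD4 was lower on the LATS2 array. G6PC3, the glucose-6-phosphatase subunit found in most tissues, whose loss causes congenital neutropenia, read 2579 on the LATS2, 2251 on the LATS2N and 1649 on the control array. Its log2 ratio over control was 0.65 (spread 0.18) for LATS2 and 0.45 (spread 0.14) for LATS2N, and both probe sets were above control on both arrays. ACBD4, an acyl-CoA binding protein of peroxisomes, read 48.4 on the LATS2, 93.5 on the LATS2N and 140.2 on the control array. LATS2 was below the floor, so the gene was called at least 2.78-fold lower there than on control, from a single probe set. VAT1, a membrane oxidoreductase-like protein, read 2125 on the LATS2, 1901 on the LATS2N and 1691 on the control array, and DCAKD, a dephospho-CoA kinase domain protein, read 600.5, 466 and 428. Both had the LATS2 array highest and the control array lowest, though a second probe set of DCAKD was highest on LATS2N. The remaining kept genes of the group stayed within 0.25 of 0 for LATS2 over control by their brightest probe sets: NMT1, the protein myristoyltransferase, at 0.07 (its other usable probe sets gave -0.07 and -0.42), SLC25A39, which carries glutathione into mitochondria, at 0.05, NAGS, which makes the activator of the urea cycle, at 0.18, TMEM101 at -0.02 and the amine oxidase gene AOC2 at -0.24. Over the 9 kept genes, 6 were above 0 and the median was 0.07.

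By their brightest probe sets the 6 kept signalling genes were above 0 for LATS2 over control, but 3 of them, FZD2, DUSP3 and PLCD3, also had a usable probe set below 0. FZD2, a Wnt receptor, read 131 on the LATS2, 62.0 on the LATS2N and 56.2 on the control array, and was the only gene called higher on LATS2 against control, 2.34-fold. Its second probe set, almost as bright, read 59.5, 91.0 and 78.6 and pointed the other way, and the median over both gave a log2 ratio of 0.41. ARHGAP27 read 268 on the LATS2, 227 on the LATS2N and 139 on the control array. Both usable probe sets were above control on both construct arrays, and the LATS2 difference was 1.93-fold, short of the call. DUSP3, a phosphatase that acts on ERK and JNK, read 495 on the LATS2, 490.3 on the LATS2N and 321 on the control array, so the constructs were alike, but 1 of its 3 usable probe sets was lower than control on both. MAP3K14, the kinase NIK that starts noncanonical NF-kB signalling, read 230.5 on the LATS2, 177 on the LATS2N and 167 on the control array. FMNL1, a formin of blood cells, read 144, 89.8 and 116 in the same order, and PLCD3, a phospholipase C, read 1143, 1029 and 1089. The second usable probe set of PLCD3 read 259.7, 272 and 355, a log2 ratio of LATS2 over control of -0.45, against 0.07 for the brightest. The median over these 6 was 0.54.

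The genes of the cytoskeleton, junctions and cell surface held the most divergent values. CD300LG, a CD300-family receptor of endothelium, read 73.3 on the LATS2, 46.1 on the LATS2N and 226 on the control array. The control array alone was high, and the gene was called 3.09-fold lower on LATS2 and at least 4.48-fold lower on LATS2N; its 3 other probe sets were below the floor on every array. GJC1, which encodes a gap junction connexin, read 399.9 on the LATS2, 189.5 on the LATS2N and 202 on the control array. Here the LATS2 array alone was high, 1.98-fold over control and 2.11-fold over LATS2N, and its second usable probe set read 76.8, 71.8 and 45.3. MAPT read 362 on the LATS2, 265 on the LATS2N and 252 on the control array, a log2 ratio of LATS2 over control of 0.52 (spread 0.25). Of its 4 usable probe sets 3 were above control on both construct arrays and 1 was below it on both, at 103 on the LATS2, 22.3 on the LATS2N and 138 on the control array. The paralogs MPP2 and MPP3, membrane scaffold proteins, differed: MPP2 read 152 on the LATS2, 90.1 on the LATS2N and 96.2 on the control array, and MPP3 read 39.6, 79.9 and 93.9. MPP3 was below the floor on LATS2, so it was at least 1.86-fold lower there than on control. The brightest probe set of MPP2 was highest on LATS2, while its second usable probe set read 40.2, 78.1 and 45.0 and was below the floor on both LATS2 and control. C1QL1, a synaptic C1q-like protein, was above the floor on LATS2N only.

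Several of the 13 genes that were measured but not kept are known from other tissues. The astrocyte filament gene GFAP read 6.77 on the LATS2, 21.9 on the LATS2N and 22.9 on the control array, and SLC4A1, the anion exchanger of red cells, read 46.8, 23.8 and 30.1. ITGA2B, the platelet integrin, read 20.4, 98.2 and 57.4, CRHR1, the receptor for corticotropin-releasing hormone, read 39.6, 44.9 and 43.3, and AOC3, the vascular amine oxidase next to AOC2, read 44.3, 6.63 and 54.7. RND2, TMEM106A, MEOX1, ASB16, RUNDC3A, FAM171A2, ADAM11 and HIGD1B were also not kept, each at or below 50.5 on all 3 arrays by its brightest probe set. AARSD1 and CCDC103 had no probe set with exactly 1 symbol and were not analysed here.

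The LATS2N array differed less from control along this row. Of the 39 genes 20 were above 0, 51.3% against 53.7% of all genes kept, 19 were below 0, against 46.1%, and the median log2 ratio was 0.01, against 0.02. None was called higher, against 0.973% of all genes, and 1 was called lower, CD300LG, against 0.54%. At 1.5-fold, 4 were higher, against 4.83%, and 2 lower, against 3.04%. More than 2 spreads from 0 lay 6 genes above, against 10.7%, and 2 below, against 7.91%. The genes furthest above control were HDAC5 at 0.77, ARHGAP27 at 0.71, DUSP3 at 0.61, C1QL1 at 0.59 (a bound) and DHX8 at 0.53. The furthest below after CD300LG were ACBD4 at -0.59, PLEKHM1 at -0.44, FMNL1 at -0.37 and HEXIM2 at -0.31. DHX8, DUSP3, ARHGAP27 and HDAC5 were also above control on the LATS2 array. Both ratios use the same control array, so they are not independent of each other.

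Full-length LATS2 against LATS2N leaves the control array out. Of the 39 genes 30 were above 0, 76.9% against 52.8% of all genes kept, 9 were below 0, against 47%, and the median was 0.25, against 0.02. That median was 0.16 over the median of each gene's usable probe sets, 0.085 over all probe sets and 0.088 over all 52 measured genes with no signal filter. The genes called higher were 2 of 39, against 0.613% of all genes, and none was called lower, against 0.998%. At 1.5-fold, 4 were higher, against 4.24%, and 3 lower, against 5.01%. More than 2 spreads from 0 lay 10 genes above, against 10.6%, and 1 below, against 8.83%. FZD2, 2.12-fold higher, had probe sets that disagreed, and GJC1, 2.11-fold higher, had a second probe set at a log2 ratio of only 0.10. The next highest were MPP2 at 0.75 (its second usable probe set gave -0.63, a bound), FMNL1 at 0.68, HEXIM1 at 0.56, PLEKHM1 at 0.52 and DBF4B at 0.47, apart from CD300LG, whose 0.54 is a bound. The lowest were ACBD4 at -0.89, MPP3 at -0.66 and C1QL1 at -0.59, all bounds, then AOC2 at -0.33 and TMEM101 at -0.17. This comparison and LATS2 over control share the LATS2 array, so the 2 medians are not independent of each other.

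**Figure D3:**
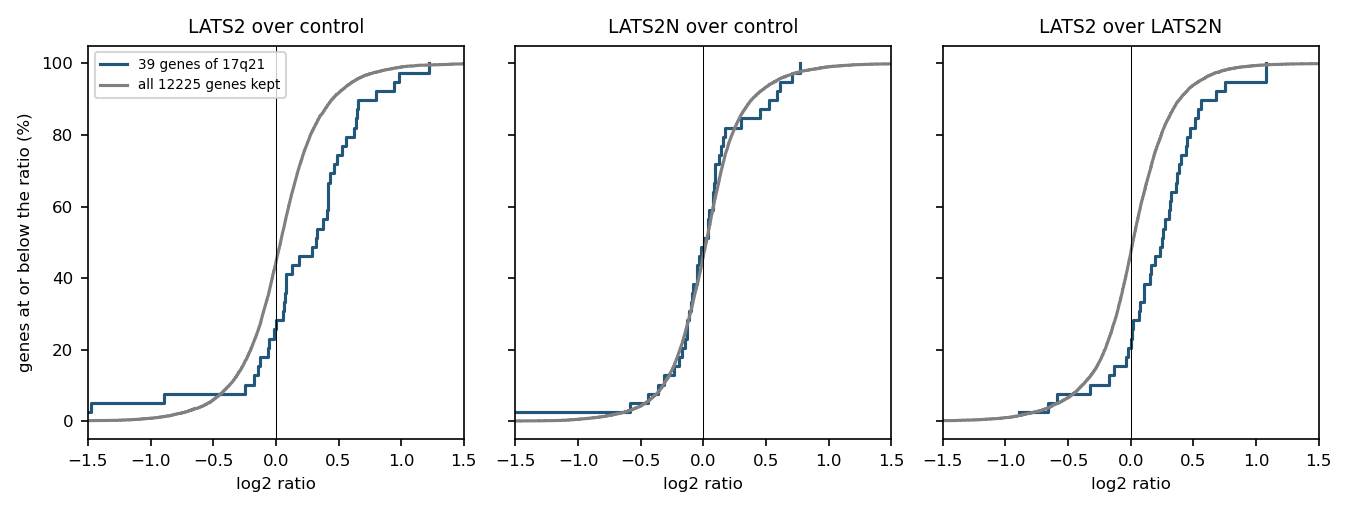
Share of genes (y axis, percent) at or below each log2 ratio (x axis) for the 39 genes of 17q21 (blue) and all 12225 genes kept (grey); the axis ends at 1.5 on either side, beyond which CD300LG lies at -1.63 for LATS2 over control and -2.16 for LATS2N over control. The blue line lies to the right of the grey one for LATS2 over control and LATS2 over LATS2N through most of its length, and on it for LATS2N over control.

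The size of the LATS2 difference varied with signal. For LATS2 over control, the 13 genes with a geometric mean signal between 100 and 500 were all above 0 by their brightest probe sets. Their median was 0.46, where 3414 genes of that signal over the whole array had 0.07. Among the 13, DUSP3 and MAPT also had a usable probe set below 0, at -0.29 and -0.42. The 12 genes between 500 and 2000 had a median of 0.35, against 0.05, and 9 of them were above 0. The 7 genes above 2000 (PSME3, LSM12, G6PC3, SLC25A39, EFTUD2, KIF18B and NMT1) had a median of 0.05, against 0.02, with G6PC3 alone beyond 0.15 in either direction. The 7 genes below 100 had a median of -0.24, against 0.00.

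Probe sets of the same gene did not always go together. Of the 39 genes, 23 had at least 2 usable probe sets, and for LATS2 over control all of them pointed the same way in 13 genes, 9 of them above 0 and 4 below. The 9 were NBR1, DHX8, G6PC3, GRN, DBF4B, GJC1, DCAKD, HEXIM1 and ARHGAP27, and the 4 were BECN1, LSM12, UBTF and EFTUD2. In LATS2 over LATS2N, 10 genes had all usable probe sets above 0, MAPT with 4 of 4 and GRN with 3 of 3 among them, and 3 had all below.

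**Figure D4:**
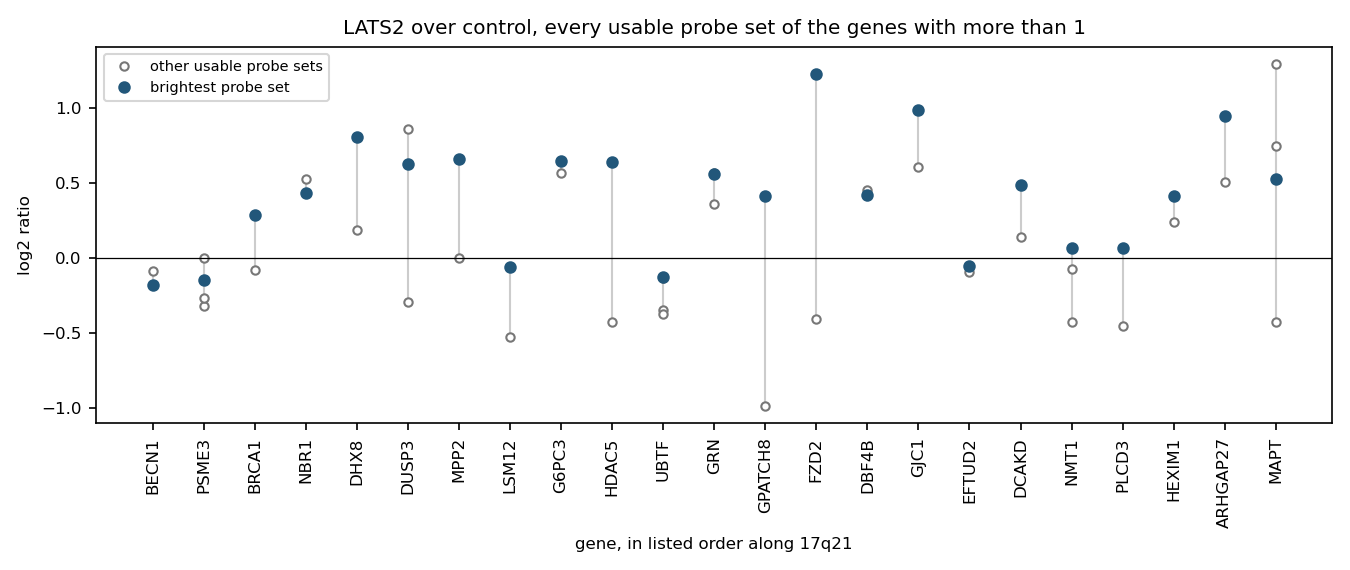
Log2 ratio of LATS2 over control (y axis) for every usable probe set of the 23 genes with more than 1 (x axis, listed order); filled points are the brightest probe set and open points the others. All points of a gene lie above 0 for 9 genes and below 0 for 4, and GPATCH8, FZD2, HDAC5, DUSP3 and MAPT span both sides widely.

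Along the row, the median was highest among the middle genes. The first 13 kept genes in listed order, BECN1 to TMEM101, had a median LATS2 over control log2 ratio of 0.18, with 7 above 0. The middle 13, LSM12 to EFTUD2, had 0.42 with 10 above 0, and the last 13, KIF18B to MAPT, 0.13 with 11 above 0. Genes above and below 0 lay mixed along the row: the longest run of neighbours above 0 was 7 genes, HEXIM1 to MAPT, and in LATS2 over LATS2N it was 11 genes, TMUB2 to KIF18B. Another 13 genes that RefSeq places between BECN1 and MAPT were kept but are not among the 54. Their median was 0.14 for LATS2 over control, with 9 above 0, and 0.24 for LATS2N over control, with 8 above 0, and for LATS2 over LATS2N it was -0.02. CCDC43 read 1877 on the LATS2, 1664 on the LATS2N and 1166 on the control array, and ETV4, a PEA3-type transcription factor, read 903, 973 and 1210, so genes of the same stretch went opposite ways. G6PC1, the only one of the 13 called at 2-fold, read 43.5, 114 and 48.8 in the same order. It was above the floor on LATS2N only, at least 2.26-fold higher there than on either other array.

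The neighbours on either side differed from each other. On the centromere side, 8 of 13 listed genes were kept, 7 of them were above 0 for LATS2 over control, and the median was 0.32. EZH1, a histone methyltransferase of Polycomb complexes, was called 2.22-fold higher there, at 363 on the LATS2, 231 on the LATS2N and 164 on the control array. On the telomere side, 7 of 15 were kept, 3 of them were above 0, and the median was -0.19; the chromatin gene KANSL1 had a log2 ratio of 0.11 and NSF, a vesicle fusion ATPase, 0.05. The 694 other genes kept on chromosome 17 had a median of 0.05, with 412 above 0. Across the 22 autosomes, chromosome medians ran from -0.04 to 0.14 for LATS2 over control. For LATS2N over control the median was 0.11 on the centromere side and -0.13 on the telomere side. For LATS2 over LATS2N the medians were 0.11 and -0.11 in the same order. Higher values for LATS2 over control were thus not confined to the 54 genes, and no test of a difference from other parts of the genome was made.

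**Figure D5:**
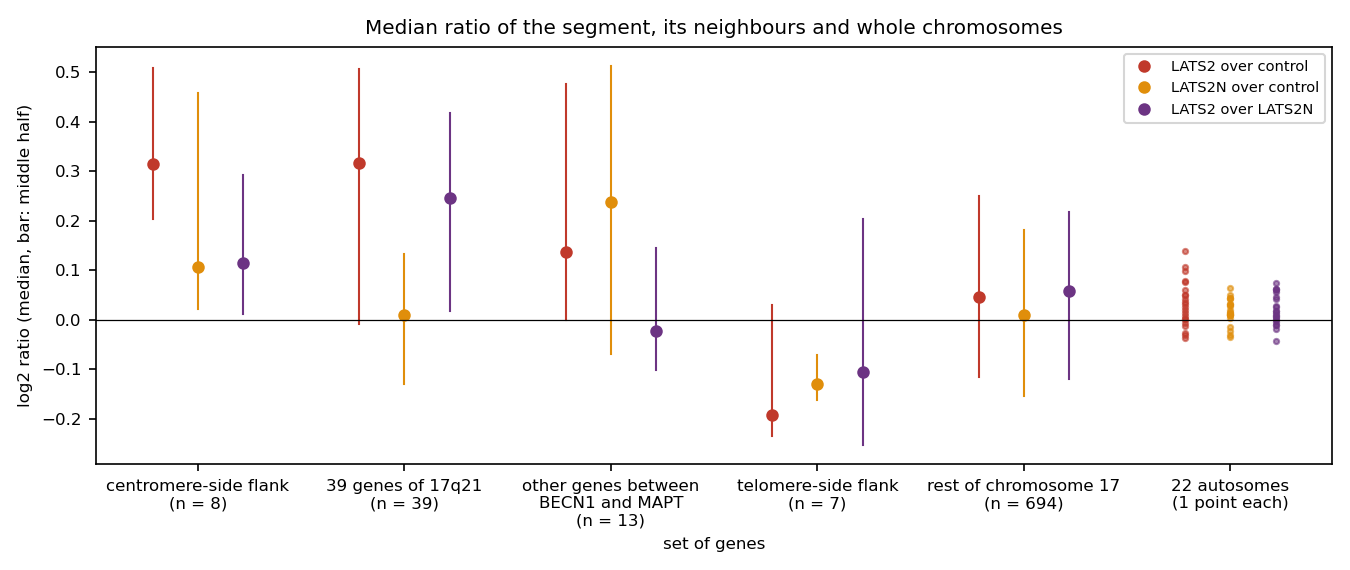
Median log2 ratio (points) and interquartile range (bars) of the 39 genes, their flanks, the 13 other genes between BECN1 and MAPT and the 694 other genes of chromosome 17, with each of the 22 autosomes as a small point, in red for LATS2 over control, orange for LATS2N over control and purple for LATS2 over LATS2N. The red median is 0.32 for the 39 genes and the centromere-side flank, -0.19 for the telomere-side flank and 0.05 for the rest of the chromosome.

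Genes elsewhere in the genome whose products work with those of this row went in both directions. For LATS2 over control, 55.5% of all genes kept were above 0 and 44.2% below 0. Of 8 kept partners of BRCA1, 6 were above 0 for LATS2 over control with a median of 0.16, led by BABAM2, a scaffold of the BRCA1-A complex, at 2112 on the LATS2, 1453 on the LATS2N and 1197 on the control array; BARD1, the obligate partner of BRCA1, had a log2 ratio of 0.10. The 14 partners of BECN1 and autophagy adaptors had a median of 0.07 with 9 above 0. GABARAPL1, a protein that coats autophagosomes, was the highest of them at 0.77, followed by the receptor gene CALCOCO2 at 0.59, while the receptor gene SQSTM1 was at -0.11. For HEXIM1, the 5 kept genes of P-TEFb and its 7SK particle had a median of 0.08, with the kinase CDK9 at 0.16. The 7 spliceosome partners of EFTUD2 had a median of -0.05 and 3 above 0, with the helicase gene SNRNP200 the highest at 0.51. Of 8 listed genes of noncanonical NF-kB signalling, where MAP3K14 acts, 6 were kept. All 6 were below 0, with a median of -0.34, while MAP3K14 itself was above 0, at 0.46. RELB was the lowest of the 6, at 304 on the LATS2, 449.6 on the LATS2N and 514 on the control array, and LTBR was at -0.03. The 9 genes of the RNA polymerase I machinery had a median of -0.14 with 7 below 0, as UBTF itself was. No gene of these 6 lists was called at 2-fold in any comparison.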

How the data were processed

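Signals of 54675 probe sets on 3 arrays, 1 per group, were analysed. Per the submitters' processing notes the deposited intensities were made with MAS5, whose version and settings are not given in the sources used here. Trimmed by 2% at either end, array means were equal (500.1), found from the values, so the arrays had been scaled to a common target. Groups follow the overexpression label. Python 3.11.15, numpy 2.4.6 and pandas 2.3.3 were used. The platform's probe table gave 1 symbol for 41097 probe sets; symbols other than the members' were updated to RefSeq (GRCh38.p14). The brightest probe set stood for a gene, signals were floored at the median, 50.5, and log2 ratios were called at 2-fold over the whole table. Role groups, partner lists and neighbours come from lists, and all kept members were named. The members and lists were chosen with earlier results of these data known. With 1 array per group no test was possible. Alternatives covered the floor, the probe set, the scaling, the fold and the signal.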

Additional observations from a re-analysis of the deposited data

How the results depend on the processing

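No result has a replicate or a test, and signals below the floor give only bounds. No paired analysis was possible because each group has 1 array. The median of the 39 genes stayed above 0 for LATS2 over control in 9 of the 10 alternatives that could move it and for LATS2 over LATS2N in 10 of 10, and the cause of the changes below was not tested. Quantile normalization and centring kept these medians between 0.20 and 0.30, and LATS2N over control stayed between -0.05 and 0.03. For LATS2 over control a floor at the 75th percentile gave a median of 0.00, and the median was 0.10 with the median over all probe sets, 0.13 with the median over usable probe sets (added after seeing the data) and 0.13 without probe sets of possible shared targets, 0.077 at a signal of at least 500 and 0.069 with no signal filter (also added after seeing the data). For LATS2 over LATS2N it was 0.0088 at the 75th percentile, 0.085 with the median over all probe sets and 0.088 with no signal filter. Calls of members were few and changed with the setting. At 1.5-fold, 8 members were higher and 3 lower for LATS2 over control, 4 and 2 for LATS2N over control, and 4 and 3 for LATS2 over LATS2N, where 5.9%, 4.2%, 4.83%, 3.04%, 4.24% and 5.01% of all genes were. With the floor raised to the 75th percentile, or only members reaching 500, none was called in any comparison, counts of 0 each. With the median over all probe sets 0 were higher and 1 was lower for LATS2 over control, and 0 were called otherwise; over usable probe sets 0 were higher in LATS2 over control and 0 in LATS2 over LATS2N. A floor at the 25th percentile gave 1 lower in LATS2 over LATS2N, and leaving out probe sets of possible shared targets gave 2 lower in LATS2N over control. FZD2 had a log2 ratio of 0.41 against control and 0.23 against LATS2N with the median over probe sets, and GJC1 0.59 against LATS2N over usable probe sets. The members above 0 numbered 18 for LATS2 over control and 12 for LATS2N over control at the 75th percentile, 16, 12 and 19 in the 3 comparisons without probe sets of possible shared targets, and 15, 10 and 17 at a signal of at least 500, where fewer members were counted.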
